A study of Homo sapiens with 30 samples.

Results

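RNA recovered next to the nuclear lamina of formaldehyde-fixed cells was compared with RNA of the nuclear fraction, over every gene that had enough counts. The 4 libraries used are 2 of the fixed lamina (PFA lamina 1 and PFA lamina 2) and 2 of the nuclear fraction (nuclear 1 and nuclear 2), out of 8 RNA libraries and 30 samples in the series. All of them came from HEK293FT, a human embryonic kidney line that grows fast and is easily transfected, and the cells of every RNA group, the nuclear and cytosolic fractions included, were asynchronous and had been transfected with APEX2 fused to lamin B1. A lipid reagent carried the plasmid in, Trizol served to isolate RNA, and libraries were made after ribosomal RNA depletion. The labels name no library without the fusion or without labelling, so the nuclear fraction is the only background, and a cytosolic fraction of 2 libraries is set beside it. Of 27630 genes in the table, 16504 had enough counts to be tested.

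The lamina is a meshwork of lamin proteins under the inner nuclear membrane that holds silent chromatin at the nuclear edge. APEX2 is a peroxidase that, given biotin-phenol and hydrogen peroxide, tags molecules within a short distance of itself, and paraformaldehyde (PFA) is a fixative that crosslinks RNA to neighbouring protein. A nuclear fraction holds unspliced RNA, RNAs that stay in the nucleus such as MALAT1, small nucleolar RNAs and ribosomal RNA precursors, besides mRNA on its way out.

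Nuclear libraries held 6517331 and 6710602 counts and PFA libraries 5859026 and 2321291, so PFA lamina 2 was the least deeply sequenced, and a count of 3 there stands for 1.10 CPM (counts scaled to library size, the unit of all levels here). The 2 mitochondrial ribosomal RNAs RNR1 and RNR2 took 30.4% and 31.3% of the nuclear counts, and 20.6% of PFA lamina 1 but 7.13% of PFA lamina 2. In the cytosolic libraries they took 7.81% and 15.0%, so the nuclear fraction was not free of mitochondrial RNA. Of 7 genes typical of HEK293 cells, 6 were detected in every library and PAX2 lay between 0 and 6.25 CPM. The blood markers PTPRC, HBB and CD3E and the fibroblast marker COL1A2 had no count, while COL1A1 lay between 9.24 and 34.6 CPM. Of the same 7 genes 3 were called higher at the PFA lamina than in the nuclear fraction, KRT8, KRT18 and NEFL, and none was called lower. CDH2 stood at -0.66 (adjusted p = 0.121) and NEFM at -0.20 (adjusted p = 0.766) on the log2 scale. The labels do not say whether the replicates came from separate cultures, so p-values measure the spread between these libraries.

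At the PFA lamina 1589 genes were higher than in the nuclear fraction, 9.63% of those tested, and 1289 were lower, 7.81% (adjusted p under 0.05). The genes that rose included nearly all replication-dependent histone mRNAs, and many mRNAs of mitochondrial proteins, the proteasome and the ribosome. Those that fell included MALAT1 and NEAT1, small nucleolar RNAs, long intergenic RNAs, protocadherins, and genes lying in an intron of another gene. Both PFA libraries lay above both nuclear libraries in 4956 genes (30%) and below both in 5320 (32.2%), and the called genes all belong to these. Against the cytosolic fraction, 87 genes were higher at the PFA lamina (0.527%) and 24 lower (0.145%).

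**Figure D1:**
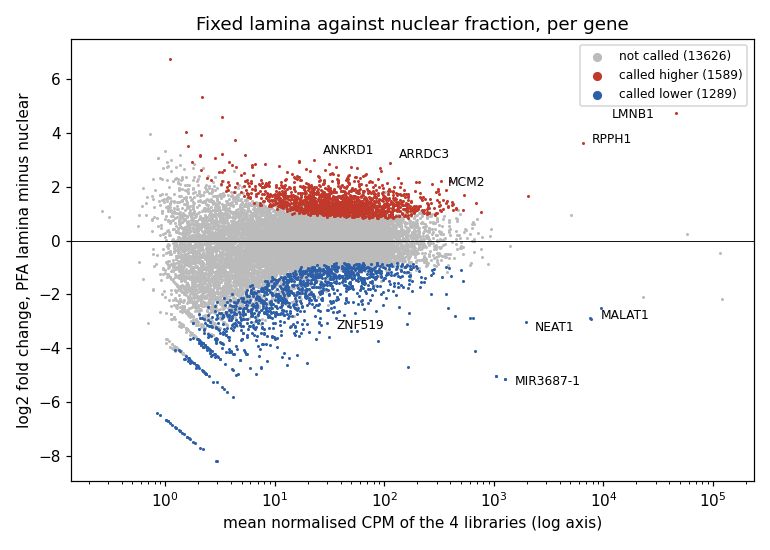
Log2 fold change of each of the 16504 tested genes (PFA lamina minus nuclear) against its mean level in the 4 libraries (normalised CPM, log axis), with called genes in red (1589 higher) and blue (1289 lower). LMNB1 and RPPH1 stand at the upper right, MALAT1, NEAT1 and MIR3687-1 at the lower right; the diagonal streaks at the lower left are genes with few or no counts at the PFA lamina, where the fold change depends on the prior count.

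These counts rest heavily on single libraries. Without nuclear 1 the same test called 1 gene higher and 12 lower, without nuclear 2 it called 314 and 147, and without PFA lamina 1 it called 472 and 259. Without PFA lamina 2 it called 2737 higher and 3248 lower. No gene was called in the opposite direction in any of these. Of the 138 named genes that were called, only ARRDC3, SCARNA9, ZNF519 and the hairpin rows MIR3687-1, MIR3687-2 and MIR3648-1 kept the call without nuclear 1, as did CRIPT, SLC2A3 and the other hairpin rows with ribosomal RNA precursor sequence; each other call named below is lost there. Against the nuclear fraction, ARRDC3, CRIPT, SCARNA9, SLC2A3 and ZNF519 were called under every alternative, leaving aside a test against a minimum change of 2-fold, which called 13 genes higher and 14 lower. The scaling also sets the balance: 55.2% of the calls were higher with TMM factors, 78.7% with total counts and 42.3% with upper-quartile factors, and these scalings moved the median of all genes by 0.17 and -0.16 on the log2 scale.

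The PFA libraries differed from each other by more than 1 on the log2 scale in 4175 genes, of which 3006 were higher in PFA lamina 2. Of the genes called higher, 929 were more than 1 log2 unit above the nuclear mean in each PFA library apart. Of those called lower, 1001 were more than 1 below the nuclear mean in each. The calls were made from these same values, so these counts are a description. The median difference of all genes was -0.04 in PFA lamina 1 and -0.02 in PFA lamina 2.

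LMNB1, the gene of the transfected fusion (chr5:126112315-126172712, hg19), had 3231 and 3507 CPM in the nuclear libraries and 96237 and 81004 CPM at the PFA lamina. It took 8.89% and 9.49% of all PFA counts, and its log2 fold change of 4.72 ± 0.68 (SE, 2 libraries against 2, adjusted p = 0.00533) was the highest among the named genes. Reads of the plasmid and of the chromosomal gene cannot be told apart in these counts. LMNB2, the other B-type lamin, was also higher, at 96.2 and 133 CPM in the nuclear and 250.0 and 269 CPM in the PFA libraries. Its cytosolic values of 395 and 446 CPM lay above both PFA libraries. LMNA, which makes the A-type lamins, had 50 and 59.3 against 51.9 and 64 CPM, and the groups overlapped.

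Among messages of the proteins that hold the lamina to the membrane the share called higher was near that of all genes. Of 19 inner nuclear membrane and LINC complex genes, 2 rose (10.5%, against 9.63% of all genes) and none fell, with a median of -0.15 that turned to 0.0017 with total counts. These 2 were EMD, which encodes emerin, at 27.7 and 45.9 against 101 and 81.7 CPM, and BANF1, a small chromatin-binding protein that emerin's family holds, at 9.18 and 18.2 against 56.9 and 28.3 CPM. In the cytosol EMD had 83 and 112 CPM, overlapping the PFA libraries, and BANF1 69.3 and 68.3 CPM, above both. Among 30 nuclear pore genes AAAS and NUP62 rose (6.67%, against 9.63% of all genes) and NUP210L fell (3.33%, against 7.81%). Of 13 genes for H3K9 methylation and heterochromatin binding, the marks of lamina-bound chromatin, 5 rose and none fell. The 5 included EHMT2, a histone H3K9 methyltransferase, with 41.7 and 35.9 CPM in the nuclear and 86.5 and 78 CPM in the PFA libraries. DAXX, a histone H3.3 chaperone, rose too, with a log2 fold change of 1.85 ± 0.31. In the cytosol EHMT2 had 120 and 103 CPM, above both PFA libraries. DAXX had 82.1 and 89.2 CPM there, below its PFA values of 113 and 89.4 CPM. The exons of EHMT2 and of DAXX do not all lie on 1 chromosome in the annotation, so both rows are uncertain. With such rows and those under 300 bases dropped, 11 genes of this list were left, of which 3 rose and none fell. The median log2 fold change of the list was then 0.26, against 0.70 for all 13.

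After LMNB1 and RPPH1, the largest rise among the genes named by size of change was that of ANKRD1 (chr10:92671857-92681032), a target of the YAP growth regulator. Its level was 4.51 and 5.67 CPM in the nuclear fraction, 47.7 and 33.5 CPM at the PFA lamina, and 3.61 and 8.46 CPM in the cytosol. Both PFA values lay above all 4 fraction values, with a log2 fold change of 3.0 ± 0.49 against the nuclear fraction (adjusted p = 0.00674) and 2.80 ± 0.49 against the cytosol (adjusted p = 0.0385). ARRDC3 (chr5:90664449-90679190), an alpha-arrestin that helps to remove receptors from the cell surface, had 32.1 and 21.1 CPM in the nuclear libraries, 186 and 207 CPM in the PFA libraries and 44.1 and 57.1 CPM in the cytosol. It was 2.88 ± 0.31 above the nuclear fraction on the log2 scale (adjusted p = 0.00109) and 1.96 ± 0.30 above the cytosol (adjusted p = 0.0312). LOC648987, an uncharacterised RNA gene, showed the same order, with 7.47 and 7.9 CPM in the nuclear, 71 and 39 CPM in the PFA and 4.68 and 8.46 CPM in the cytosolic libraries. Without nuclear 1, which enters the shared estimate of spread, none of ANKRD1, ARRDC3 and LOC648987 was called against the cytosol (adjusted p = 0.0675, 0.0526 and 0.0573), nor with the 2-fold minimum, and ANKRD1 was not called without nuclear 2 either. These comparisons share the PFA libraries.

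RPPH1 (chr14:20811230-20811570), the catalytic RNA of ribonuclease P, which trims the 5′ end of tRNA precursors, had 718 and 1244 CPM in the nuclear fraction and 15485 and 8360.5 CPM at the PFA lamina. Its cytosolic values of 13498 and 16352 CPM overlapped those of the PFA lamina, and the difference between PFA lamina and cytosol was -0.32 ± 0.51 (log2, adjusted p = 0.748). Of 5 tested RNAs made by RNA polymerase III, RPPH1 was the only called one. Other genes among the 12 with the largest rise included the transcription regulators HEY2 and ID3, the galectin-related LGALSL, and 3 histone genes. HEY2, a repressor downstream of Notch, had 2.65 and 5.15 CPM in the nuclear fraction, 34.4 and 23.9 CPM at the PFA lamina and 22.6 and 20.1 CPM in the cytosol. ID3, an inhibitor of basic helix-loop-helix factors, had 15.4 and 10.5 CPM in the nuclear and 82.4 and 89.8 CPM in the PFA libraries. For both genes the nuclear libraries were the lowest of the 3 groups.

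**Figure D2:**
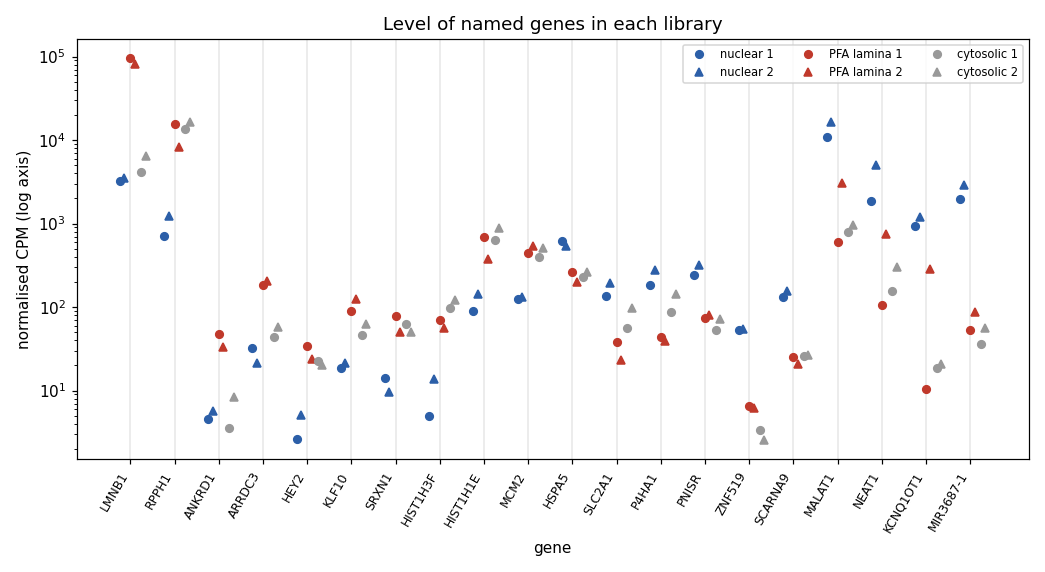
Level of 20 named genes in each nuclear (blue), PFA lamina (red) and cytosolic (grey) library, in normalised CPM on a log axis; circles are replicate 1 and triangles replicate 2. For the first 10 genes both red symbols lie above both blue ones, and for the last 10 below them; for LMNB1, ANKRD1, ARRDC3, HEY2 and KLF10 the red symbols also lie above the grey ones.

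Nearly all tested histone genes rose. Replication-dependent histones package new DNA in S phase, and their mRNAs end in a stem-loop in place of a poly(A) tail, so they are seen in ribodepleted libraries. Of 43 tested core histone genes 40 rose and none fell, with a median log2 fold change of 2.16 over the tested genes, 2.46 in PFA lamina 1 and 1.73 in PFA lamina 2. HIST1H3F, an H3 gene (chr6:26250370-26250835), had 4.98 and 13.9 CPM in the nuclear and 70.2 and 55.5 CPM in the PFA libraries. HIST1H4C, an H4 gene, had 21.2 and 28 against 225 and 94.5 CPM, and HIST1H4H, another H4 gene, 11.5 and 18.6 against 134 and 59.2 CPM. HIST1H4A had the largest fold change of the list, 2.95 ± 0.58 (adjusted p = 0.00914), from low levels. HIST2H2BC, at -0.61, was the only member with a negative value, and it was not called. Many of these genes are near-identical copies, so the value of a single gene is uncertain where reads fit several of them.

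The linker histones, which bind DNA between nucleosomes, moved alike: all 3 tested H1 genes with stem-loop mRNAs rose, HIST1H1E from 88.7 and 145 CPM in the nuclear to 694 and 376 CPM in the PFA libraries. Of 9 histone variants whose mRNAs carry a poly(A) tail, 6 rose and none fell, with a median of 1.13. H1F0, a linker histone of resting cells, had 120.0 and 163 CPM in the nuclear and 565 and 740.1 CPM in the PFA libraries, and H3F3A, at -0.89, was not called. In the cytosol HIST1H3F stood at 96.9 and 122 CPM and HIST1H1E at 631 and 886 CPM, the first above both PFA libraries and the second overlapping them. Without nuclear 1 edgeR called none of the 43 core histones, while 40 were higher at an unadjusted p under 0.05 and 42 had a log2 fold change above 0. Without nuclear 2 and without PFA lamina 1 the count was 32 in each case.

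Promoters of the histone genes are shown since 40 of the 43 rose. RefSeq promoters (250 bases before to 50 after the start, GRCh38.p14) matched 34 of the 43 genes by symbol. The letters TATAAA or their complement TTTATA stood in 24 of these (70.6%), against 12% of all 27305 promoters, and CCAAT or ATTGG in 28 (82.4%), against 35.7%. The 130 bases before the start are printed for the H3 gene with the largest rise, HIST1H3F (chr6:26250636-26250765, minus strand), and for HIST1H4H (chr6:26285535-26285664, minus strand), whose promoter held neither; capitals mark the matches, and TTTATA overlaps TATAAA in the first.
HIST1H3F: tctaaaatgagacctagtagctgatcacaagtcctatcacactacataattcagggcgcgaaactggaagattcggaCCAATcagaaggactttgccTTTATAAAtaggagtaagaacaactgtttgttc
HIST1H4H: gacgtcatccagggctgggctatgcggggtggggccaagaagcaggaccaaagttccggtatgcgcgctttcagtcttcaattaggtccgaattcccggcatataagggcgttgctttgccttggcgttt
A match describes the letters only, and both genes rose.

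Genes of DNA replication, which run in the same phase, rose more often than they fell. Of 32 genes, 9 rose and 1 fell, with a median of 0.56, 0.59 in PFA lamina 1 and 0.51 in PFA lamina 2. MCM2 and MCM6 are subunits of the replicative helicase. MCM2 had 125 and 133 CPM in the nuclear and 439 and 543 CPM in the PFA libraries, a log2 fold change of 1.93 ± 0.31 (adjusted p = 0.00612). MCM6 had 56.8 and 78.5 against 242 and 192 CPM, and GINS3, a helicase cofactor, rose as well. Of 30 mitosis genes 1 rose (3.33%, against 9.63% of all genes) and 4 fell (13.3%, against 7.81%). CENPE, a kinetochore motor, had 84.2 and 55.8 CPM in the nuclear and 13.3 and 25.4 CPM in the PFA libraries, and ASPM, a spindle pole protein, had 204 and 124 against 42.7 and 73.2 CPM. The gene of this list that rose was CDC20, an activator of the anaphase-promoting complex.

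Many mRNAs of housekeeping complexes rose, with unequal medians in the PFA libraries. Among 78 mitochondrial ribosomal proteins 31 rose and 1 fell, with a median of 1.36 in PFA lamina 1 and 0.32 in PFA lamina 2. Among 85 oxidative phosphorylation genes 22 rose and none fell, with medians of 1.11 and 0.31, and among 84 cytosolic ribosomal proteins 19 rose and 3 fell, with medians of 1.11 and 0.29. The proteasome, which degrades tagged proteins, had 13 of 36 genes higher and 1 lower, with medians of 1.32 and 0.50. In each of these lists the PFA lamina 2 value was the smaller. NDUFS6, a subunit of respiratory complex I, had 8.4 and 11.9 CPM in the nuclear and 62.6 and 30.5 CPM in the PFA libraries. MRPL58, a peptide release factor of the mitochondrial ribosome, had 7.94 and 5.84 against 40.3 and 14.3 CPM. PSMB6, a proteasome core subunit, had 13.7 and 17.4 against 85.4 and 61.1 CPM.

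A few members of these lists fell. PSMC1, a proteasome ATPase, had 11.2 and 12.7 CPM in the nuclear libraries and 1.11 and 1.47 CPM in the PFA libraries. RPL36A had 72.2 and 78 against 5.73 and 17.3 CPM, and RPL21 14.3 and 24.2 against 2.4 and 5.89 CPM. Ribosomal protein genes have many processed copies in the genome, so these rows are uncertain. EIF5A, a translation factor that helps ribosomes through difficult peptides, had 63.5 and 78 CPM in the nuclear and 417 and 221 CPM in the PFA libraries, and its near-copy EIF5AL1 rose as well. In all, 14 of 67 translation factors rose and 2 fell.

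Some chaperone and cytoskeleton genes rose too. Of 20 chaperonin and heat shock genes 8 rose and none fell. HSPB1, a small heat shock protein, had 6.54 and 11.3 CPM in the nuclear and 31.4 and 54.1 CPM in the PFA libraries, and BAG3, a co-chaperone of HSP70, 16.8 and 24.4 against 66.2 and 58.9 CPM. Of 13 actin and tubulin genes 7 rose and none fell, with a median of 1.16 in PFA lamina 1 and 1.10 in PFA lamina 2. TUBG1, which nucleates microtubules, had 27.2 and 47.9 CPM in the nuclear and 97.6 and 102 CPM in the PFA libraries. Where a list is given with none in a direction, edgeR at an unadjusted p under 0.05 put none there either, with these exceptions. Lower were 4 inner nuclear membrane genes, 2 H3K9 and heterochromatin genes, 2 Sm and LSm genes, 1 oxidative phosphorylation gene and 1 HEK293-type marker. Higher were 2 ER genes, 1 low-oxygen gene and 1 Cajal body RNA. Without nuclear 2 the counts higher fell to 8 for mitochondrial ribosomal proteins, 1 for oxidative phosphorylation, 2 for the proteasome and 3 for actins and tubulins.

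**Figure D3:**
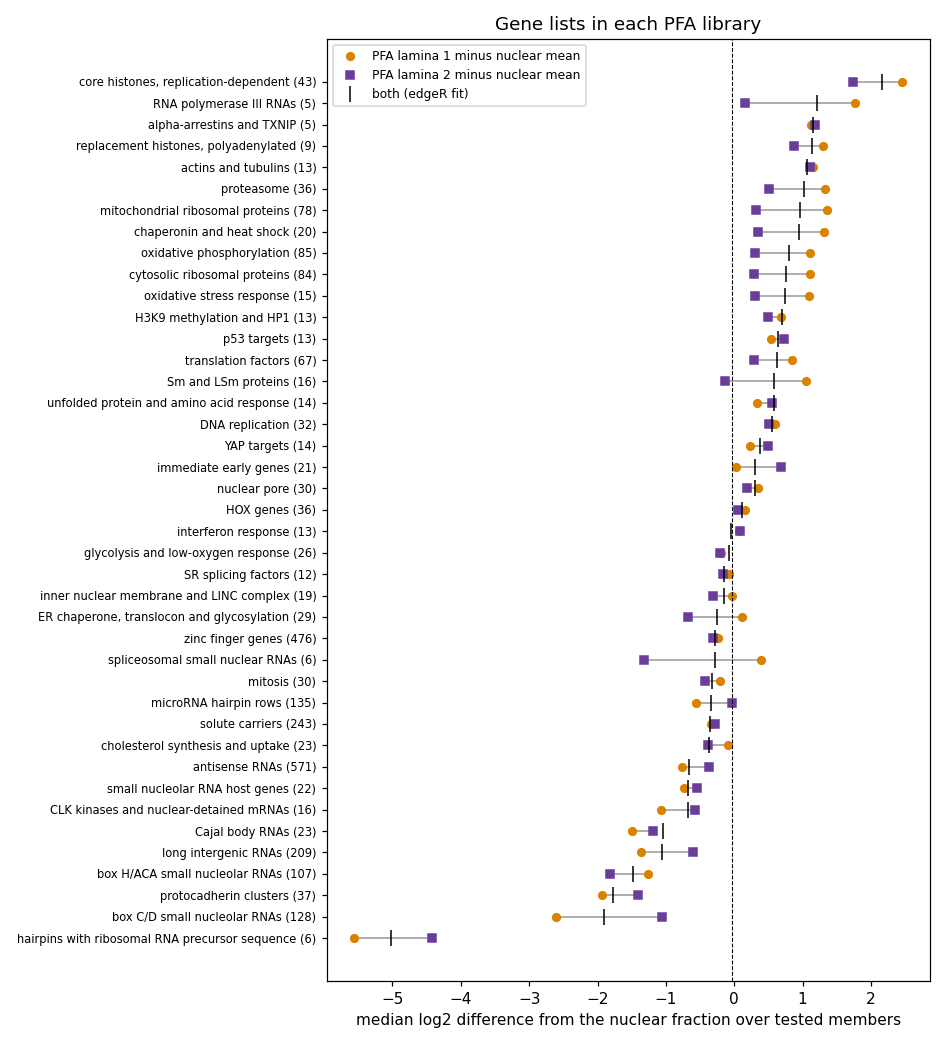
Median log2 difference from the mean of the nuclear libraries over the tested members of each gene list with at least 5 of them (number in brackets), for PFA lamina 1 (circles), PFA lamina 2 (squares) and the fit of both (bars); the dashed line is the median of all tested genes. Core histones stand highest in both libraries and hairpins with ribosomal RNA precursor sequence lowest, and the squares lie nearer to 0 than the circles for ribosomal, mitochondrial and proteasome genes.

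mRNAs of the secretory pathway are translated on the endoplasmic reticulum (ER), which runs into the outer nuclear membrane. Of 29 ER chaperone, translocon and glycosylation genes none rose and 3 fell (10.3%, near the 7.81% of all genes). Their summed level was 5508 and 5657 CPM in the nuclear, 5039 and 3328 CPM in the PFA and 3576 and 3715 CPM in the cytosolic libraries. The median was 0.12 in PFA lamina 1 and -0.67 in PFA lamina 2. In the fit it was -0.25, which turned to 0.13 without PFA lamina 2. HSPA5, the main ER chaperone, had 613 and 535 CPM in the nuclear and 261 and 199.8 CPM in the PFA libraries, a log2 fold change of -1.32 ± 0.30 (adjusted p = 0.0142). PDIA3, an ER disulfide isomerase, had 167 and 148 against 67.3 and 73.2 CPM, and SSR1, a translocon-associated protein, fell too. Of 243 solute carriers 11 rose (4.53%, against 9.63% of all genes) and 30 fell (12.3%, against 7.81%). Of 37 protocadherins, cell adhesion genes in 3 clusters whose members share 3′ exons or neighbour each other, none rose and 16 fell, with a median of -1.78. PCDHGA9 had 25.1 and 12.9 CPM in the nuclear and 3.88 and 4.78 CPM in the PFA libraries. Reads in the shared exons are counted for every gamma protocadherin, so these members are not independent. No protocadherin was called by edgeR without nuclear 1, nuclear 2 or PFA lamina 1, with total counts or in a fit of only the 4 libraries compared, while 0 to 36 were lower at an unadjusted p under 0.05 in these settings.

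Of 26 glycolysis and low-oxygen genes none rose and 3 fell (11.5%, against 7.81% of all genes), with a median of -0.08 that turned to 0.14 with total counts and 0.22 without nuclear 2. P4HA1, a collagen prolyl hydroxylase, had 182 and 277 CPM in the nuclear fraction, 44 and 39.4 CPM at the PFA lamina and 88.2 and 143 CPM in the cytosol. SLC2A1, the glucose transporter GLUT1, had 134 and 193 CPM in the nuclear, 38.6 and 23.5 CPM in the PFA and 56.2 and 98.1 CPM in the cytosolic libraries. PDK1, a kinase that turns off pyruvate dehydrogenase, fell from 104 and 115 to 32.7 and 30.2 CPM. In each of the 3 the PFA libraries were the lowest of the 6 libraries. SLC2A3, the transporter GLUT3, which is outside this list, had 205 and 374 CPM in the nuclear, 48.4 and 41.9 CPM in the PFA and 97.9 and 209.6 CPM in the cytosolic libraries. It was named after its values were seen. The enzymes of glycolysis proper were not called, with GAPDH at 0.68 and ENO1 at 0.79.

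Stress genes that rose included those of the defence against oxidants. Of 15 oxidative stress genes 5 rose and none fell, namely SRXN1, HMOX1, TXNIP, FTH1 and TXNRD1. SRXN1, which repairs oxidised peroxiredoxins, had 14.3 and 9.62 CPM in the nuclear, 77.8 and 49.7 CPM in the PFA and 62.7 and 50.1 CPM in the cytosolic libraries. HMOX1, which breaks down haem, had 3.58 and 2.75 against 11.6 and 11.4 CPM. TXNIP, a thioredoxin-binding relative of ARRDC3, had 50.9 and 58.9 CPM in the nuclear and 135 and 193 CPM in the PFA libraries.

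Of 21 immediate early genes, which cells switch on within minutes of a stimulus, 5 rose and none fell. KLF10, a growth-restraining zinc finger factor, had 18.7 and 21.6 CPM in the nuclear, 88.7 and 127 CPM in the PFA and 46.1 and 62.4 CPM in the cytosolic libraries. JUN, a subunit of AP-1, had 197 and 199 against 536 and 551 CPM. FOS and EGR1 were not called, at 0.47 and -0.09. Of 14 YAP targets ANKRD1, AJUBA and FJX1 rose, while the classical targets CTGF and CYR61 were not called, at -0.23 and -0.41. TRIB3 and ATF4, of the response to amino acid shortage, rose, and SEL1L, of ER-associated degradation, fell, among 14 unfolded protein and amino acid response genes. Of 13 tested p53 targets BAX, which opens the mitochondrial route to cell death, and RRM2B rose and TP53INP1 fell. Of 23 genes of cholesterol synthesis and uptake PMVK rose and TM7SF2 fell. In these last 3 lists 14.3%, 15.4% and 4.35% of the genes rose, against 9.63% of all genes. Those that fell were 7.14%, 7.69% and 4.35%, against 7.81% of all genes. With so few genes called, these counts are not read as a result about the lists.

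HOX genes, which set position along the body axis, moved both ways, with 6 of 36 higher and 6 lower. HOXC13 had 3.11 and 4.3 CPM in the nuclear and 20.7 and 23.2 CPM in the PFA libraries, and HOXD9 41.7 and 25.9 against 3.14 and 15.1 CPM. HOXC13, HOXA7, HOXB13, HOXA11, HOXD13 and HOXA10 rose, while HOXD9, HOXA2, HOXD10, HOXB5, HOXA4 and HOXA6 fell. Neighbouring genes of a cluster overlap in places, and strand was not used. Of 476 zinc finger genes 35 rose (7.35%, against 9.63% of all genes) and 75 fell (15.8%, against 7.81%). ZNF519 (chr18:14075989-14132489) had 53.2 and 53.9 CPM in the nuclear and 6.47 and 6.25 CPM in the PFA libraries, a log2 fold change of -3.07 ± 0.35 (adjusted p = 0.00129). CRIPT, a protein that binds PSD-95, also fell, at 64.9 and 67.9 CPM against 11.5 and 9.93 CPM. It was likewise named after its values were seen.

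RNA processing genes were called in both directions. Of 16 tested Sm and LSm proteins, which form the ring around spliceosomal and decay RNAs, 7 rose and none fell, with a median of 1.05 in PFA lamina 1 and -0.14 in PFA lamina 2. LSM4 had 23.8 and 38 CPM in the nuclear and 131 and 92 CPM in the PFA libraries. Of 16 CLK kinase and other mRNAs known to be held in the nucleus with retained introns, none rose and 5 fell, with a median of -0.68. PNISR, a serine/arginine-rich protein, had 242 and 323 CPM in the nuclear and 75 and 80.2 CPM in the PFA libraries. LUC7L3, a component related to U1, had 301 and 353 against 97.4 and 102 CPM. MAT2A, which makes S-adenosylmethionine, fell as well, and CLK1 was not called, at -0.64.

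The abundant nuclear RNAs MALAT1 and NEAT1 were lower at the PFA lamina. MALAT1 (chr11:65265209-65273983), which sits in nuclear speckles, had 10962 and 16522 CPM in the nuclear fraction, 595 and 3079 CPM at the PFA lamina and 795 and 974 CPM in the cytosol. The log2 fold change was -2.90 ± 0.68 (adjusted p = 0.0166), made of -4.50 in PFA lamina 1 and -2.13 in PFA lamina 2. NEAT1 (chr11:65190269-65213009), the scaffold of paraspeckles, had 1858 and 5094 CPM in the nuclear, 106 and 745 CPM in the PFA and 156 and 301 CPM in the cytosolic libraries. For both genes PFA lamina 1 lay below both cytosolic libraries and PFA lamina 2 above both.

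Some small RNAs of the nucleolus and of Cajal bodies fell, and none was called higher. Box C/D small nucleolar RNAs guide methylation of ribosomal RNA, and 37 of 128 tested were lower, with a median of -1.90. Box H/ACA RNAs guide pseudouridylation, and 28 of 107 were lower, with a median of -1.48. Of these tested rows 24 and 22 passed the filter on low counts only through the nuclear libraries, so the medians are descriptions. Of the others 31 of 104 (29.8%) and 24 of 85 (28.2%) were lower, against 7.14% of all genes that would pass without the nuclear libraries. Of 23 Cajal body RNAs, which guide the same changes in spliceosomal RNAs, 8 were lower. SCARNA9 (chr11:93454680-93455032, in an intron of CEP295) had 133 and 155 CPM in the nuclear and 25.5 and 20.6 CPM in the PFA libraries, a log2 fold change of -2.63 ± 0.30 (adjusted p = 0.00129). Its copy SCARNA9L had 64.4 and 62.5 against 11.5 and 8.46 CPM. Most box C/D and H/ACA rows had few counts: SNORD18B, the named member with the largest fall, had 29 and 22 counts in the nuclear and 0 and 1 in the PFA libraries. Genes of this kind typically lie in introns, and intron RNA of the host is then counted for them too.

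Of 22 small nucleolar RNA host genes 1 rose and 5 fell. SNHG12 had 78.9 and 64.3 CPM in the nuclear and 15 and 36.1 CPM in the PFA libraries, and SNHG15, the member that rose, 30 and 48.3 against 129 and 81.7 CPM. Of 209 tested long intergenic RNAs 3 rose and 31 fell, and of 571 antisense RNAs 17 rose and 70 fell. Of these 60 and 88 passed the filter only through the nuclear libraries, and of the others 21 of 149 (14.1%) and 50 of 483 (10.4%) fell. Of all genes that would pass without the nuclear libraries 7.14% fell, so the share of antisense RNAs was near that of all such genes. Without nuclear 2 the counts lower were 4 and 7, and without PFA lamina 2 they were 77 and 177.

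Among the hairpin rows that fell, those with the highest nuclear levels were 6 rows taken to hold sequence of the ribosomal RNA precursor. That sequence match was not checked by alignment. The rows MIR3687-1 and MIR3687-2 hold the same reads (chr21:9826203-9826263), as do MIR3648-1 and MIR3648-2 (chr21:9825832-9826011). MIR3687-1 had 1991 and 2938 CPM in the nuclear, 53.4 and 88.3 CPM in the PFA and 36.6 and 56.7 CPM in the cytosolic libraries, a log2 fold change of -5.13 ± 0.45 (adjusted p = 2.4e-04). MIR3648-1 had 1347 and 2725 CPM in the nuclear and 37.3 and 89 CPM in the PFA libraries. MIR663A, in an intron of MIR663AHG, had 1051 and 1510.0 against 29.2 and 120.3 CPM. MIR663B, in an intron of ANKRD30BL, had 280.0 and 356 against 6.1 and 19.5 CPM. All 6 rows fell, and all 6 were called without any 1 of the 4 libraries compared; the list was drawn up after its values were seen.

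These libraries measure long RNA, so a hairpin row counts reads of whatever transcript covers it, and not the mature microRNA. The mature sequences are printed to show what the rows described here would encode, with the seed (bases 2 to 8) in capitals, from RefSeq (GRCh38.p14), which matched 120 of the 135 tested hairpin rows by symbol. The first 3 are 81% to 90.9% G and C, against a median of 52.2% over 2370 mature microRNAs.
hsa-miR-3648: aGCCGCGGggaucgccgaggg
hsa-miR-663a: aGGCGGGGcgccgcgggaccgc
hsa-miR-663b: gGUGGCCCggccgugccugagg
hsa-miR-17-5p: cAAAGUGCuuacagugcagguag
hsa-miR-18a-5p: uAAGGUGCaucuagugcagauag
hsa-miR-19a-3p: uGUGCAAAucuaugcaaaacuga
hsa-miR-15b-5p: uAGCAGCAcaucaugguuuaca
No 2 of these share a seed.

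The cluster and MIR15B lie in longer transcripts whose own values can be read beside them. MIR17HG (chr13:92000074-92006829), the host transcript of the miR-17-92 cluster, whose microRNAs promote cell division, had 120.3 and 204 CPM in the nuclear fraction, 1.85 and 25 CPM at the PFA lamina and 6.02 and 16.3 CPM in the cytosol. Its log2 fold change was -3.72 ± 0.79 (adjusted p = 0.0112), and PFA lamina 1 was the lowest of the 6 libraries. Inside it MIR18A had 18 and 52 counts in the nuclear libraries and none in the PFA libraries, and MIR19A 15 and 36 counts against 0 and 2. Both were called, but such rows can pass the filter through the nuclear libraries alone, so these calls are a description. MIR17 had 8 and 13 counts against 1 and 1 and was not called. MIR15B, in an intron of SMC4, had 15 and 21 counts against 0 and 0 and was called, with the same limit from the filter. SMC4, a condensin subunit, had 146 and 175 CPM in the nuclear and 127 and 105 CPM in the PFA libraries (log2 fold change -0.46 ± 0.29, adjusted p = 0.269). In all, 5 of 135 tested hairpin rows rose (3.7%, against 9.63% of all genes) and 16 fell (11.9%, against 7.81%). Of the 135 rows, 35 passed the filter only through the nuclear libraries, and 7 of the 16 that fell were among these. Of the other 100 rows 9 fell (9%), near the 7.14% of all genes that would pass without the nuclear libraries.

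Most of the 12 genes named for the largest falls lay inside other genes. Of the 12, 8 lie wholly in an intron of another gene, 1 overlaps exons of another gene and 3 lie apart. Of all 16316 tested genes with a position, 691 lay inside an intron. The 12 needed at least 50 counts in the nuclear libraries only, which favours rows with few counts at the PFA lamina. Their ranking is therefore a description. P2RY14, a receptor for UDP-sugars in an intron of MED12L, had 104 and 71 counts in the nuclear and 1 and 3 in the PFA libraries, a ratio of the summed, scaled counts of 29 (exact 95% interval 11.1 to 108, counting error only). CEP295NL, in an intron of TIMP2, had 169 and 278 counts against 0 and 11, a ratio of 27 (14.9 to 54.4). OGN, a matrix protein of connective tissue in an intron of CENPP, had 186 and 90 counts against 2 and 6, a ratio of 22.9 (11.5 to 53.6). Their hosts were not called: MED12L at -0.58 (adjusted p = 0.189), TIMP2 at 0.08 (adjusted p = 0.875) and CENPP at -0.47 (adjusted p = 0.298).

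LINC00216 lies in an intron of PSMA3-AS1, LOC100335030 of SPATS2, EVI2A of NF1, ITPK1-AS1 of ITPK1, and MTRNR2L3, a near copy of the mitochondrial RNR2, of RAE1. PSMA3-AS1 fell itself (-1.90, adjusted p = 0.00754), while ITPK1 rose (1.08, adjusted p = 0.0386) around an antisense gene that fell. GCNT7 overlaps exons of another gene, and WISP1, LOC105369632 and MARCH1 lie apart. MARCH1, a ubiquitin ligase of immune cells, had 226 and 150 counts in the nuclear and 5 and 7 in the PFA libraries. WISP1, a secreted signalling protein, had 147 and 151 counts against 0 and 7.

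NF1 is given as an example. NF1 (chr17:29421945-29704695) encodes neurofibromin, a brake on RAS, and holds OMG, EVI2B and EVI2A on the opposite strand of an intron. NF1 itself had 247 and 209 CPM in the nuclear and 161 and 181 CPM in the PFA libraries and was not called (-0.41 ± 0.28, adjusted p = 0.304). OMG, a myelin glycoprotein, had 120 and 59 counts in the nuclear and 0 and 7 in the PFA libraries. EVI2B had 98 and 62 counts against 0 and 6, and EVI2A 103 and 64 against 1 and 4. All 3 inner genes were called lower. Rows with so few counts at the PFA lamina can pass the filter through the nuclear libraries alone, so these calls are a description. Of the 3, only EVI2A was among the genes named by size of change.

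Of 2354 genes in the table that lay wholly inside an intron of another gene, 691 passed the filter on low counts. Of these 237 (34.3%) passed only through the nuclear libraries, against 5.34% of genes apart, so these had to be lower elsewhere to be so placed, and the counts over the genes that passed are a description. Of the 691, 222 fell (32.1%) and 10 rose (1.45%). Of the 454 that would pass without the nuclear libraries 141 fell (31.1%), against 5.68% of such genes apart. With at least 10 counts in every library, a setting that removes genes that fell far, 153 inner genes were left and 50 of them fell (32.7%), with a median of -0.68. Of 11576 genes that lay apart from others 700 fell (6.05%) and 1249 rose (10.8%), and of 4049 that overlapped exons of another gene 357 fell (8.82%). Among the 445 inner genes of at least 300 exonic bases 34.8% fell, 32.7% where the host is on the opposite strand and 40.3% where it is on the same strand. Inner genes had lower levels, a median of 5.98 CPM in the nuclear libraries against 19.9 CPM for genes apart. With at least 300 exonic bases and a mean of at least 10 CPM, 20 of 85 inner genes fell (23.5%), against 5.63% of genes apart. The median of these 85 inner genes was 0.005.

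Inner genes with a mean of at least 10 CPM over the 8 libraries, of any length, were set beside their hosts in 111 pairs, with 103 hosts. The inner genes had a median of -0.86 and the hosts of -0.03, the inner gene lay below its host in 77 pairs (69.4%), and 8.74% of the hosts were called lower. Rows under 300 exonic bases are included in these pairs. Without such rows, the 85 inner genes at this level had a median of 0.005, and they were not set beside their hosts. The counts ignore strand and give a read to every gene it overlaps, so RNA from the host's intron and RNA of the inner gene cannot be told apart. Without nuclear 1 only 0.735% of the inner genes were called lower, against 0.026% of genes apart. Without nuclear 2 the shares were 3.76% and 0.795%, and without PFA lamina 1 8.09% and 1.22%.

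**Figure D4:**
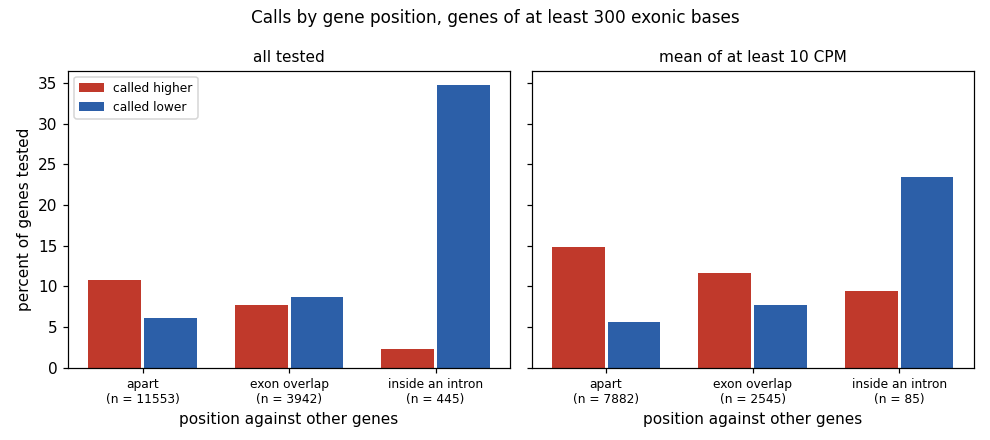
Share of tested genes of at least 300 exonic bases called higher (red) or lower (blue) at the PFA lamina than in the nuclear fraction, by position against other genes, for all of them (left) and for those with a mean of at least 10 CPM (right). Genes inside an intron were called lower in 34.8% and 23.5%, genes apart in 6.04% and 5.63%.

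Lamina-associated domains, stretches of chromatin that touch the lamina, were mapped in the same series in HCT116, a colorectal carcinoma line, as 1 consensus list for each of G1, S and G2. Of 194 tested genes wholly inside domains in all 3 stages, 13 rose (6.7%) and 25 fell (12.9%) in the comparison of HEK293FT libraries. Of 15695 genes outside in all stages 9.75% rose and 7.73% fell. Genes inside had lower levels, with a median of 9.04 CPM against 19.1 CPM in the nuclear libraries. With a mean of at least 10 CPM, 12 of 80 genes inside were higher (15%) and 13 lower (16.2%), against 14% and 6.37% of those outside. The cell lines differ, so these are descriptions of these lists only.

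Genes were also split by exonic length into 5 classes of equal size. In the class with the longest transcripts, from 5564 bases, 3.48% rose and 10% fell, and in the shortest class, up to 1722 bases, 13.1% rose and 8.48% fell. Across the 16504 genes, which are not independent, length and log2 fold change had a Spearman rho of -0.08 in PFA lamina 1 and -0.02 in PFA lamina 2.

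The largest differences between the PFA libraries are listed apart, among 8020 genes with at least 50 counts in both. KCNQ1OT1 (chr11:2629558-2721228), an imprinted antisense RNA that silences its neighbours, had 10.3 CPM in PFA lamina 1 and 282 CPM in PFA lamina 2, beside 942 and 1194 CPM in the nuclear and 18.7 and 20.9 CPM in the cytosolic libraries. NEAT1 was in the same group, and DLG4, a synaptic scaffold protein, had 13.3 and 97.5 CPM, beside 52.4 and 101 CPM in the nuclear and 20.7 and 31.3 CPM in the cytosolic libraries. In each of the 3 PFA lamina 1 lay below both cytosolic libraries and PFA lamina 2 above both.

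In the other direction, PFA lamina 1 was far above PFA lamina 2 in RNR2, at 73112 and 15023 CPM, in CDR1, at 205 and 37.2 CPM, and in RSL1D1, a nucleolar protein, at 217 and 54.8 CPM. Reads of CDR1 and of its antisense RNA cannot be told apart in counts without strand. FAM136A, a mitochondrial protein, had 98.5 and 26.9 CPM beside 29.1 and 30.4 CPM in the nuclear libraries, and COX7A2, a subunit of cytochrome c oxidase, 72.1 and 19.1 CPM beside 37.2 and 55.3 CPM. For CDR1, RSL1D1, FAM136A and COX7A2 PFA lamina 1 lay above both nuclear libraries and PFA lamina 2 below both, and none of them was called. RNR2 lay below the nuclear values of 181652 and 219293 CPM in both and was not called either (adjusted p = 0.0733). It was called lower with total counts, with no filter and without PFA lamina 1, where its log2 fold change was -3.73. These genes were picked for the difference, which is given as a description.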

How the data were processed

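RNA was counted per gene symbol in 8 HEK293FT libraries in 4 groups of 2. The values are read counts that the authors made with featureCounts 1.5.2 on hg19 with the RefFlat annotation, ignoring strand and counting a read for every gene it overlaps, per the file headers, which list no option for reads with several matches. TopHat2 2.1.1, Bowtie2 2.3.2 and edgeR 3.24.3 appear in the submitters' processing notes without a stated role. From these counts, genes were filtered with filterByExpr by group (16504 left) and tested with edgeR 4.0.16 under R 4.3.3: TMM factors, the quasi-likelihood test, 1 coefficient per group over all 8 libraries, with p-values adjusted by Benjamini-Hochberg over all genes tested and a threshold of 0.05. Levels are CPM after TMM scaling. Differences of a single PFA library from the nuclear mean used log2 CPM with a prior count of 2. In simulated counts the test recovered 99 of 100 genes changed 4-fold and 16 of 100 changed 2-fold, and called 7 unchanged genes among 16504 simulated. The changed genes all had a mean above 10 CPM, so recovery at lower levels was not simulated. The simulated spread came from the same fit with a cap, so these numbers do not cover how the calls depend on single libraries.

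The comparison, the gene lists (47, with 2 added after values were seen) and the members were chosen with earlier results of these data known. Named genes were the 12 with the largest rise and fall among called genes of at least 300 exonic bases where the higher group had 50 counts or more per library, up to 3 called members per list (20 counts or more), the 5 largest differences between the PFA libraries in each direction, and LMNB1. Some of these genes are not reported here, and others named were chosen after their values were seen. A gene was placed inside an intron where it lay between exons of a gene with at least 300 exonic bases. Domain lists are the deposited interval positions, used to place genes only. Ratios of low counts carry exact 95% intervals, which cover counting error only, as the reads carry no molecular identifiers. Alternatives were other scalings, filters, a replicate block, DESeq2 1.42.0 with its Wald test, fitting the 4 compared libraries alone, testing against a 2-fold change, each library left out, and, after seeing the data, RNR1, RNR2 and LMNB1 left out.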

Additional observations from a re-analysis of the deposited data

How the results depend on the processing

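The counts of 1589 genes higher and 1289 lower stayed within 1.5 times under DESeq2 size factors, upper-quartile factors, at least 10 counts in every library, the 300-base minimum, the DESeq2 Wald test and RNR1, RNR2 and LMNB1 left out. Total counts gave 511 lower, no filter 2002 lower, the 4 libraries alone 355 and 249, and the 2-fold minimum 13 and 14. Leaving out 1 library gave 1 to 2737 higher and 12 to 3248 lower, the fewest without nuclear 1 and the most without PFA lamina 2. The replicate block gave 1882 higher and 1674 lower and changed no named call; deviations of same-numbered libraries correlated over genes at 0.00012 for PFA and nuclear, -0.067 for PFA and cytosolic, 0.095 for cytosolic and native, 0.16 for nuclear and native, 0.28 for nuclear and cytosolic and 0.32 for PFA and native lamina, not all over 0.1, so the numbers were not taken to pair the samples. Among named genes, COX7A2 (0.01) changed sign with DESeq2 factors (-0.040), upper-quartile factors (-0.18), the 10-count filter (-0.15), the block (-0.24), the Wald test (-0.065) and without nuclear 1 (-0.25), and ran from -1.26 without PFA lamina 1 to 0.66 without PFA lamina 2. LMNA (0.08) turned to -0.067 with upper-quartile factors and -0.045 with the 10-count filter, and ran from -0.057 without PFA lamina 2 to 0.24 without PFA lamina 1, with -0.041 without nuclear 1. DLG4 (-0.50) turned to 0.052 without nuclear 2 and ran from -2.51 without PFA lamina 2 to 0.36 without PFA lamina 1. Without PFA lamina 1 and without PFA lamina 2, FAM136A stood at -0.14 and 1.74, RSL1D1 at -0.39 and 1.59, CDR1 at -0.30 and 2.17, and RPPH1 against the cytosol at -0.89 and 0.052. These were called in neither direction in the reported fit; DLG4, FAM136A, RSL1D1 and CDR1 were called without PFA lamina 2, and the last 3 also with no filter. RNR2 (-2.19) was called with total counts (-2.12), with no filter (-2.15) and without PFA lamina 1 (-3.73). The cause was not tested. PFA lamina 2, at 2321291 counts, limits what low genes can show, and 2 libraries a group limit every call.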
